A study of Rattus norvegicus with 48 samples.

Results

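The 4 miRNAs described here, rno-miR-3559-5p, rno-miR-374, rno-miR-203 and rno-miR-301a, stood low in the remnant rat liver 6 h after partial hepatectomy (PHx) and higher again at the later times. They were selected on these very values, from the 143 miRNAs in the deposited table, so the time course of the untreated animals is given as a description with no test. The liver samples came from 48 male Sprague-Dawley rats in 16 groups of 3, aged between 8 and 14 wk, pair-fed liquid diets for 6 to 8 wk in which 36% of calories came from ethanol (EtOH) or from maltose-dextran in its place (CHO). In PHx, 70% of the liver was removed as the left lateral and medial lobes. Untreated animals of each diet were sampled at 0 h, without PHx, and at 6, 24 and 72 h after it. Animals given saline, or AM21 in saline, were sampled at 0 and 24 h. AM21 is a locked nucleic acid oligonucleotide antisense to miR-21, injected intraperitoneally at 7.5 mg/kg 72 h before surgery and again right after PHx, and the saline controls received 1 mL. RNA was taken from whole frozen liver, in which fewer cells of a type and less RNA per cell cannot be told apart. No saline or AM21 animals were sampled at 6 or 72 h.

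MicroRNAs are short RNAs that pair with messenger RNAs, mainly through a seed at bases 2 to 8 counted from the 5′ end, and lower their stability or translation. After PHx the remaining liver regrows as its hepatocytes, which are mostly quiescent, reenter the cell cycle. miR-203 is best known from the skin, where it restrains the proliferation of epithelial progenitors. miR-301a belongs to the miR-130 family. miR-374 is made from the Ftx long noncoding RNA of the X-inactivation center.

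The sequences of the 4 miRNAs are shown because their seeds decide which messages each could pair with, and because their base composition is set beside the 6 h values further on. They are from RefSeq (GRCr8), written 5′ to 3′. Capitals mark the seed in the mature miRNAs. For miR-301a the hairpin is printed, and its capitals mark the 1 run that equals the seed of miR-130a-3p, a member of the same family, at hairpin bases 62 to 68.
rno-miR-3559-5p: uGACAGACuuaguacuacauga
rno-miR-374 (RefSeq rno-miR-374-5p): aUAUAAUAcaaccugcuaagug
rno-miR-203 (RefSeq rno-miR-203a-3p): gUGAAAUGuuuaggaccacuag
Mir301a hairpin: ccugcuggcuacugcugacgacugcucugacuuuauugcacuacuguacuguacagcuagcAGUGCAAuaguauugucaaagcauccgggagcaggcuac
rno-miR-130a-3p: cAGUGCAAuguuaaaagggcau

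The seeds of the 4 miRNAs differed from one another. No other miRNA of the table shared the seed of miR-3559-5p, miR-374 or miR-203 among the 118 with a RefSeq sequence. The seed taken for miR-301a was shared by 1 measured miRNA, miR-130a. In the genome (GRCr8), the 2 X-linked members lay 1.00 Mb apart on the same strand. Mature miR-374 spans chrX:72657532-72657553 on the minus strand, inside the lncRNA genes Ftx and Jpx and beside Mir421. Mature miR-3559-5p spans chrX:73660193-73660214 on the minus strand, within the bounds of the protein-coding gene Zdhhc15. Mature miR-203 spans chr6:137020756-137020777 on the plus strand, and its hairpin is overlapped by that of Mir3545 on the minus strand. The Mir301a hairpin spans chr10:72422599-72422698 on the plus strand, within the bounds of the protein-coding genes Ska2 and Prr11. The exon or intron around each was not determined here.

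All values below are log2 CPM, counts scaled to library size, unless another unit is named. A difference of 1 on this scale is a ratio of 2 in the level. A level is not compared between miRNAs, since each probe can count with its own efficiency. Counts recovered from the table summed to between 58168 and 267582 per animal, with a median of 160078. Rare miRNAs therefore rested on few counts, with 13 to 98 counts of miR-301a per animal and 37 to 257 of miR-3559-5p. At the lowest of these, 13 and 37, counting error alone was 0.40 and 0.24 on the log2 scale. The hepatocyte miRNA miR-122 took between 42.1% and 68.8% of the counts of each animal. miR-21, the target of AM21, stood between 6.59 and 7.76 in the 12 AM21 animals and between 9.65 and 15.48 in the 12 saline animals. One saline animal at 0 h, EtOH replicate 2, was at 9.65, and the next lowest saline animal at 0 h was at 11.12.

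The samples are numbered in 4 sets of 12, and the labels do not say what a set is. Sets 1 to 3 hold the animals at 0 and 24 h, 1 of each group in each set, and set 4 holds all animals at 6 and 72 h. Hence the set and the time cannot be told apart where 6 h or 72 h is compared with 0 h or 24 h, while 72 h against 6 h, and EtOH against CHO at 6 or 72 h, lie inside set 4. Totals moved with time as well. The animals at 6 h had a median total of 103644 counts, the untreated animals at 0 h 114141 and those at 72 h 204766. The part of depth and set in the time course was not tested, and values that adjust for depth are given beside it.

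miR-3559-5p lay furthest below its 0 h level of the 4. In CHO animals it was 10.29, 9.20 and 10.17 at 0 h, then 8.79, 8.78 and 8.82 at 6 h. In EtOH animals it was 10.13, 9.08 and 10.09 at 0 h, then 8.84, 8.68 and 8.48 at 6 h. All 6 animals at 6 h lay below every one of the other 42 animals in the series. How many of all miRNAs did so was not counted, and low 6 h values were the ground for choosing this one. The 6 h minus 0 h difference was -1.09 in CHO animals (SE 0.26) and -1.10 in EtOH animals (SE 0.26), or 0.469 and 0.466 of the 0 h level. Untreated CHO animals stood at 10.39, 10.14 and 10.13 after 24 h and at 10.05, 9.83 and 10.16 after 72 h. Untreated EtOH animals stood at 10.45, 9.78 and 9.76 after 24 h and at 10.22, 10.08 and 10.28 after 72 h. All of these were within the range of the 0 h animals or just above it, and the 72 h minus 6 h difference, inside set 4, was 1.22 in CHO and 1.53 in EtOH (SE 0.26 for both).

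The X-linked miR-374 lay less far below its 0 h level at 6 h, and further above it at 72 h. CHO animals had 9.10, 8.59 and 8.78 at 0 h, then 8.13, 8.43 and 8.32 at 6 h. EtOH animals had 9.03, 8.29 and 8.53 at 0 h, then 8.10, 7.97 and 7.97 at 6 h. In each diet all 3 animals at 6 h were below all 3 at 0 h, with a difference of -0.53 in CHO and -0.60 in EtOH (SE 0.17 for both). The 24 h values were 9.21, 9.04 and 9.31 in CHO and 8.94, 8.75 and 8.94 in EtOH. At 72 h the values were 9.17, 9.05 and 9.18 in CHO and 9.36, 9.27 and 9.23 in EtOH. In EtOH animals the 3 values at 72 h were all above the 3 at 0 h, by 0.67 on average (SE 0.17). In CHO animals 1 of the 0 h values, 9.10, lay among those at 72 h and the difference was 0.31 (SE 0.17). The share of all miRNAs without overlap between 72 h and 0 h was not counted, so nothing is read from this separation. Set and time cannot be told apart here, and the gap between the diets in this difference was not tested.

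miR-203, the epithelial regulator, was less clearly separated from the untreated 0 h animals. In CHO animals it was 9.96, 8.95 and 9.98 at 0 h, then 8.90, 9.26 and 9.11 at 6 h. In EtOH animals it was 10.21, 8.99 and 10.67 at 0 h, then 8.98, 9.31 and 9.10 at 6 h. The middle value of each 0 h list, replicate 2, was as low as the 6 h animals, so the groups overlapped in both diets and the differences of -0.54 in CHO and -0.83 in EtOH carried an SE of 0.32. At 24 h it was 10.12, 10.15 and 9.41 in CHO and 9.43, 9.59 and 10.01 in EtOH. At 72 h it was 9.54, 9.59 and 9.62 in CHO and 10.57, 10.14 and 10.08 in EtOH.

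miR-301a had the smallest difference in CHO, and it rested on the fewest counts. CHO animals held 8.26, 7.73 and 8.62 before PHx, and 7.88, 8.15 and 7.56 at 6 h, a difference of -0.34 (SE 0.27). EtOH animals held 8.77, 7.64 and 8.82 before PHx, and 7.36, 8.03 and 7.92 at 6 h, a difference of -0.64 (SE 0.27). The groups overlapped in both diets, again through replicate 2 at 0 h, and the CHO difference was close to its SE. Separation from 6 h came only at 72 h. At 24 h the values of 7.92, 8.20 and 8.40 in CHO and 8.56, 7.93 and 8.32 in EtOH still overlapped those at 6 h. At 72 h they were 8.40, 8.44 and 8.32 in CHO and 8.77, 8.78 and 8.82 in EtOH, all above every animal at 6 h, by 0.52 and 1.02 on average (SE 0.27 for both).

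**Figure D1:**
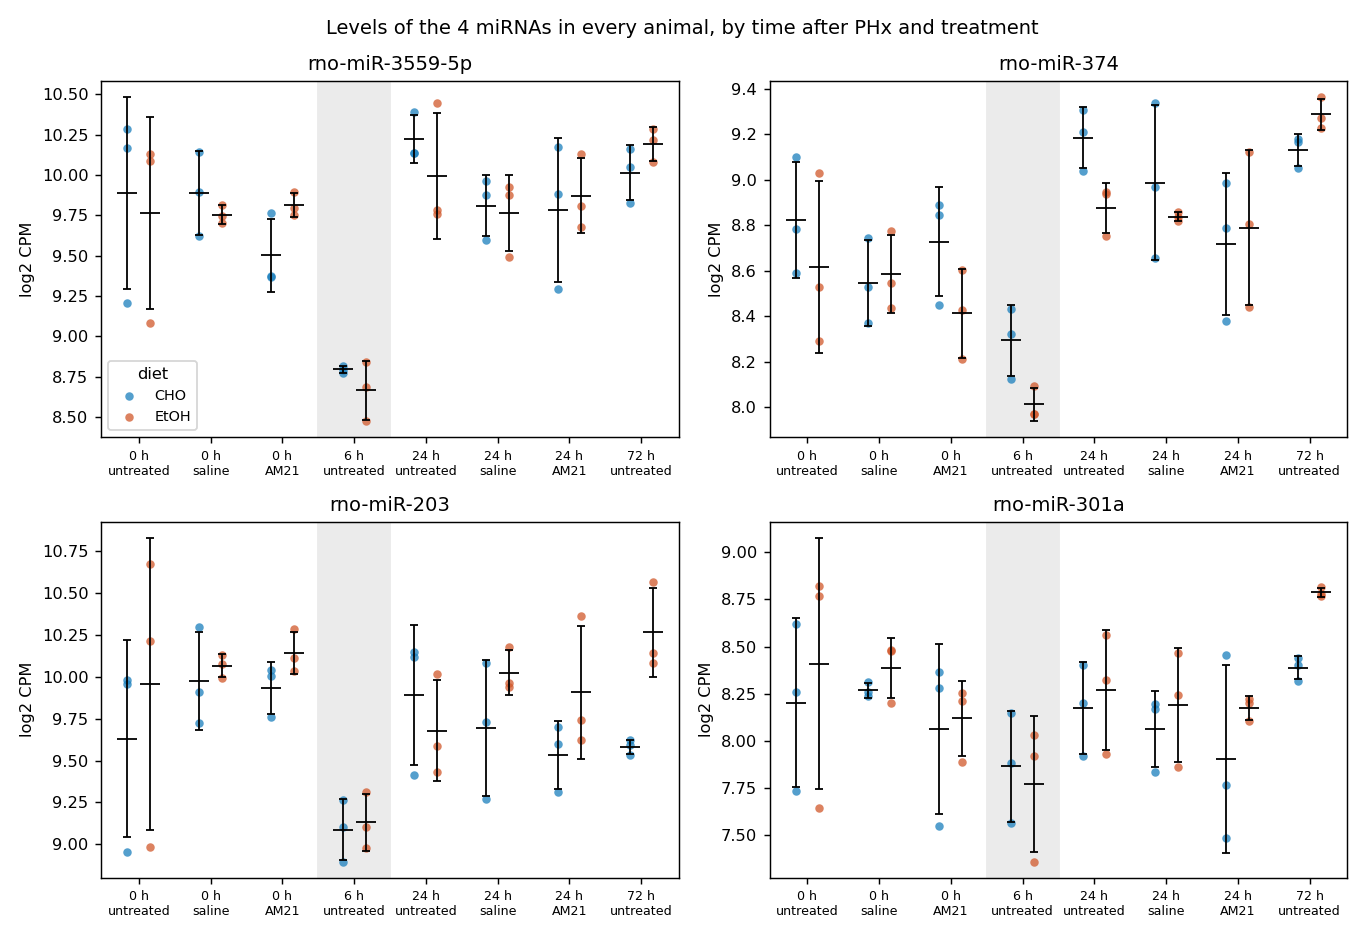
Log2 CPM of rno-miR-3559-5p, rno-miR-374, rno-miR-203 and rno-miR-301a in every animal (points; blue CHO, orange EtOH) by hours after PHx and treatment, with the mean (bar) and SD of the 3 animals of each group and the 6 h groups shaded. The 6 h animals lie below all 42 others for rno-miR-3559-5p, while for rno-miR-301a 11 of the 42 others lie below the highest 6 h animal. The members were chosen for low values at 6 h, and the same was not counted for other miRNAs.

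Against the whole table, the 6 h differences of the members were among the lower ones but not the lowest. Ranked from the lowest 6 h minus 0 h difference, miR-3559-5p was number 3 of 143 in CHO and number 5 in EtOH. The ranks of miR-374 were 17 and 23, those of miR-203 16 and 11, and those of miR-301a 30 and 21. One miRNA below all members in both diets was rno-miR-19a, which is no member, at -1.53 in CHO and -1.85 in EtOH. For the difference from 6 to 72 h, miR-3559-5p ranked number 3 from the top in CHO and number 2 in EtOH. The other members ranked between 12 and 25 from the top in CHO and between 5 and 15 in EtOH. The 3 differences against 0 h share the 0 h animals, and those against 6 h share the 6 h animals, so they are not independent of each other.

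The groups overlapped for some members and not for others. All 3 untreated animals at 6 h lay below all 3 at 0 h for 2 of the 4 members in CHO, miR-3559-5p and miR-374, where 6.99% of all 143 miRNAs did so. The same 2 members did so in EtOH, beside 16.1% of all miRNAs. All 3 animals at 24 h lay above all 3 at 6 h for 3 of the 4 in CHO (18.2% of all) and for 3 of the 4 in EtOH (26.6% of all), miR-301a being the exception in both. At 72 h all 4 members met this rule in CHO, where 22.4% of all miRNAs did, and in EtOH, where 25.9% did. Since these contrasts chose the members, nothing is read from the counts.

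**Figure D2:**
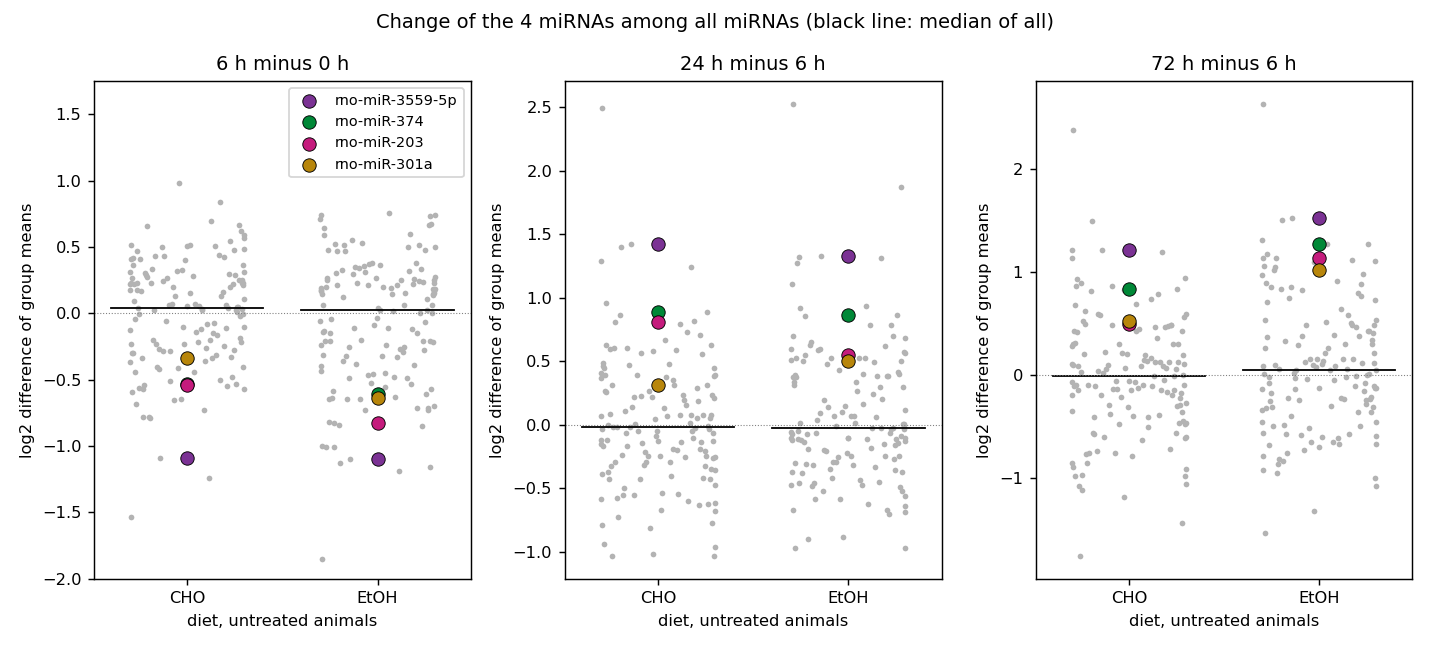
Log2 difference of the group means of untreated animals for all 143 miRNAs (gray points, spread sideways for legibility; black line, their median) and for the 4 members (colored), in CHO and EtOH animals, for 6 h minus 0 h, 24 h minus 6 h and 72 h minus 6 h. rno-miR-3559-5p lies near the edge of the distribution in all 6 columns, at -1.09 and -1.10 in the first panel, and rno-miR-301a nearest to the median at 6 h in CHO, at -0.34.

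The 0 h level itself was uneven among the untreated animals. Replicate 2 at 0 h had the lowest total of its group, 58168 counts in CHO and 92245 in EtOH, and the lowest level of all 4 members in both diets. Against the mean of replicates 1 and 3, miR-3559-5p was lower in it by -1.02 in CHO and -1.03 in EtOH on the log2 scale, and miR-203 by -1.02 and -1.46. The differences for miR-301a were -0.71 and -1.15, and those for miR-374 -0.35 and -0.49. For miR-203 and miR-301a these departures were larger than the 6 h minus 0 h difference, and for miR-3559-5p and miR-374 they were smaller. With both replicate 2 animals left out, a setting chosen after the values were seen, the 6 h minus 0 h difference of miR-3559-5p was -1.43 in CHO and -1.44 in EtOH. For miR-374 it was -0.65 and -0.77, for miR-203 -0.88 and -1.31, and for miR-301a -0.58 and -1.03, so the values of miR-203 and of miR-301a moved by over 1.5 times in each diet. Leaving out other single animals brought some differences nearer to 0 by over 1.5 times. That of miR-301a in CHO was -0.13 without 0 h replicate 3 and -0.19 without the 6 h animal at 7.56. In EtOH that of miR-203 was -0.47 without 0 h replicate 3, and that of miR-374 was -0.40 without 0 h replicate 1. No single animal turned the sign of any of the 4 in either diet. With both replicate 2 animals left out, all 4 members had their 3 animals at 6 h below both remaining 0 h animals in CHO, as did 28% of all miRNAs, and in EtOH, as did 33.6%.

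The saline animals at 0 h give a baseline that does not include these animals, though it adds an injection. Their miR-3559-5p was 9.89 ± 0.26 in CHO (SD, n = 3) and 9.76 ± 0.06 in EtOH (SD, n = 3), and the untreated animals at 6 h were lower by -1.09 in each diet on the log2 scale. The 6 h level of miR-203 lay -0.89 (CHO) and -0.94 (EtOH) from saline baselines of 9.97 ± 0.29 and 10.07 ± 0.07 (SD, n = 3 each). For miR-301a the distances were -0.41 and -0.62, from 8.27 ± 0.04 and 8.39 ± 0.16 (SD, n = 3 each). For miR-374 they were -0.25 and -0.57, from 8.55 ± 0.19 and 8.58 ± 0.17 (SD, n = 3 each). Against this baseline it was miR-374 in CHO animals that overlapped, with a highest 6 h value of 8.43 and a lowest saline value of 8.37. All 3 animals at 6 h were below all 3 saline animals for 3 of the 4 members in CHO, where 14.7% of all miRNAs were, and for all 4 in EtOH, where 21.7% were. The AM21 animals at 0 h, which had also been injected, gave a smaller distance for some members. In CHO the 6 h level lay -0.71 from theirs for miR-3559-5p, -0.43 for miR-374, -0.85 for miR-203 and -0.20 for miR-301a. In EtOH the distances were -1.15, -0.40, -1.01 and -0.35 in the same order. miR-301a overlapped this baseline in both diets, with AM21 animals as low as 7.55 in CHO and 7.89 in EtOH and 6 h animals as high as 8.15 and 8.03.

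Base composition moved with the 6 h values across the table. The mature sequences of miR-374, miR-3559-5p and miR-203 hold 31.8%, 36.4% and 40.9% G and C, below the median of 45.5% for the 118 miRNAs with a sequence (82.5% of the table). Only 2 of the 118 had a lower share than miR-374. Over these miRNAs the share correlated with the 6 h minus 0 h difference with a Pearson r of 0.50 in CHO and 0.53 in EtOH (n = 118 miRNAs, which share the same animals and are no replicates). Without the members r was 0.48 and 0.51 (n = 115). Those below the median share differed by a median of -0.14 in CHO and -0.27 in EtOH at 6 h, and the rest by 0.17 and 0.19. From 6 to 72 h the sign was the opposite, with r of -0.30 in CHO and -0.36 in EtOH for 72 h minus 6 h inside set 4. In the saline animals, 24 h minus 0 h had an r of 0.01.

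The same gradient was present in the 0 h replicate 2 animals. Their difference from replicates 1 and 3 correlated with G and C content with an r of 0.44 in CHO and 0.48 in EtOH (n = 118). Across all 143 miRNAs it also correlated with the 6 h minus 0 h saline difference, with which it shares no animal, at an r of 0.61 in CHO and 0.59 in EtOH, and at 0.59 and 0.56 over the 139 miRNAs without the members. Inside groups, the level of miR-3559-5p followed the log10 total count with an r of 0.52 over the 48 animals, number 11 of the 143 miRNAs, whose median r was 0.00. The values for miR-374, miR-203 and miR-301a were 0.19, 0.28 and 0.18. Adjusted for the log10 of the total count, the 6 h minus 0 h differences in CHO were -1.17 for miR-3559-5p, -0.56 for miR-374, -0.61 for miR-203 and -0.38 for miR-301a. In EtOH they were -1.03, -0.58, -0.77 and -0.61 in the same order. The part of base composition in the 6 h values was not tested.

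**Figure D3:**
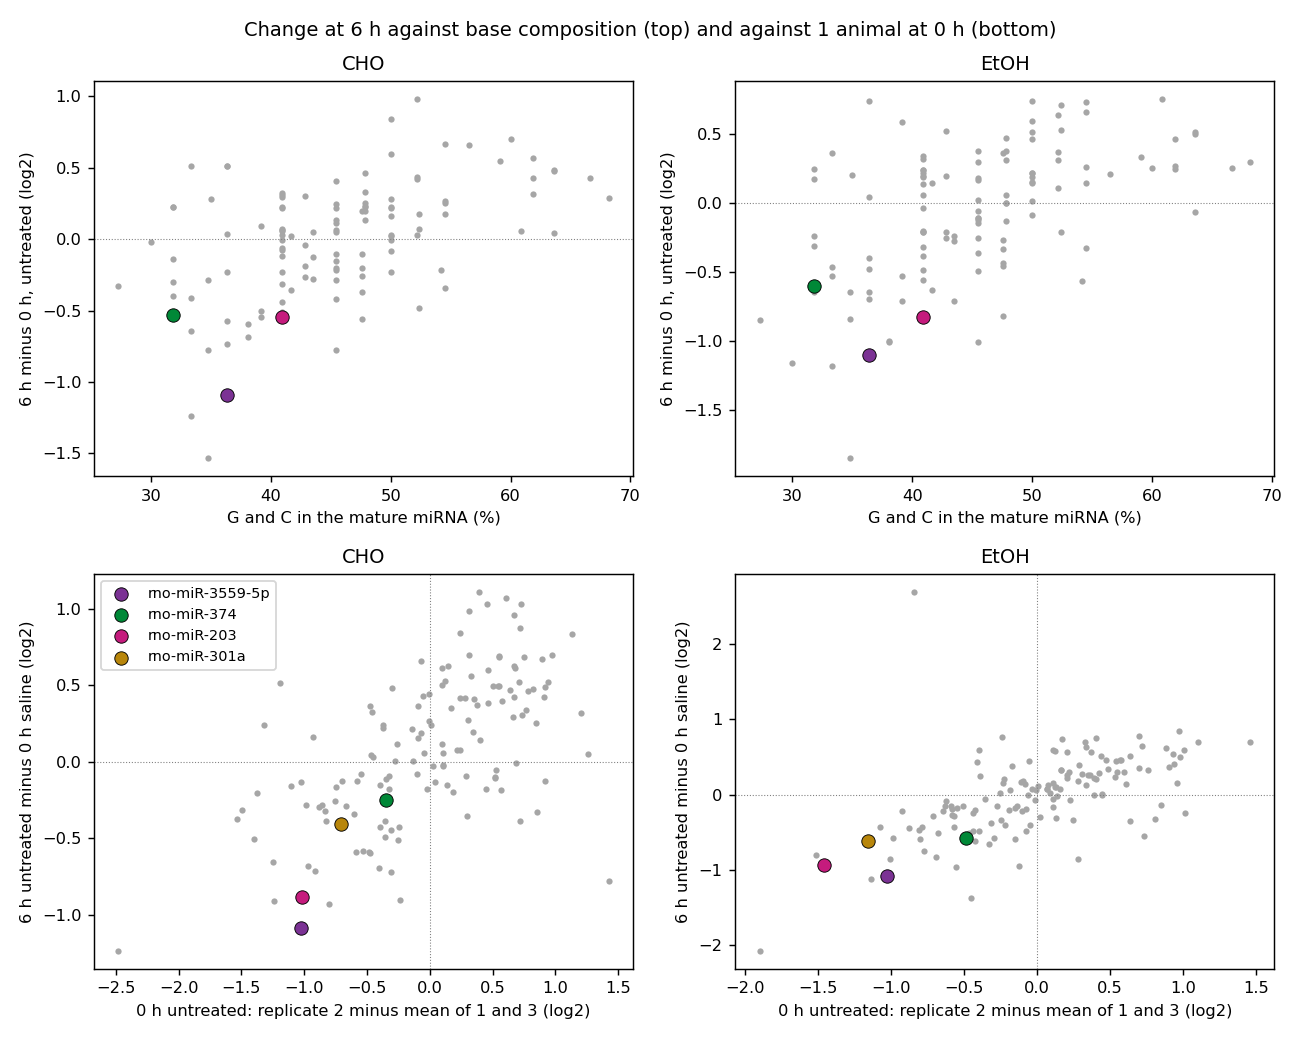
Top, 6 h minus 0 h difference of untreated animals (log2) against the share of G and C in the mature sequence (%) for 118 miRNAs. Bottom, for 143 miRNAs, 6 h untreated minus 0 h saline (log2) against the 0 h untreated replicate 2 animal minus the mean of replicates 1 and 3 (log2), with CHO on the left, EtOH on the right and the members colored. The members with a mature sequence lie on the low side of a rising cloud (r of 0.50 and 0.53), and all 4 lie below and to the left of 0 in the bottom panels (r of 0.61 and 0.59).

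Cell type miRNAs were followed over the same interval. The endothelial miRNA miR-126 had a difference of -0.78 in CHO and -1.01 in EtOH at 6 h, and its share of the counts in CHO animals was 1.98% to 5.33% at 0 h against 1.70% to 2.10% at 6 h. In EtOH animals the share was 1.99% to 4.63% at 0 h against 1.48% to 1.76% at 6 h, and miR-126 is one of the miRNAs whose course was most like that of miR-203. The 0 h replicate 2 animals held the low end of both 0 h ranges. Against replicates 1 and 3 their miR-126 was lower by -1.24 in CHO and -1.01 in EtOH on the log2 scale. Of the biliary epithelial list 2 miRNAs were measured, miR-200b and miR-429, with a median difference of -0.39 in CHO and -0.37 in EtOH. Their summed share in CHO animals was 0.079% to 0.210% at 0 h against 0.072% to 0.088% at 6 h. In EtOH animals it was 0.078% to 0.095% at 0 h against 0.054% to 0.073% at 6 h. No miRNA of the wider epithelial list, miR-203, miR-200b and miR-429, passed in any comparison tested below. The 3 hepatocyte miRNAs, miR-122, miR-192 and miR-194, had a median difference of -0.15 in CHO and -0.25 in EtOH, with 2 of the 3 lower in each diet. The 4 leukocyte miRNAs had a median of 0.16 and 0.21, and the 4 measured mesenchymal miRNAs of -0.13 and 0.00. The red blood cell pair, miR-451 and miR-144, had 0.01 in CHO and -0.90 in EtOH. Beside these stand medians over all miRNAs of 0.04 and 0.02. The part of cell type content in the 6 h values was not tested.

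The diets are compared next at 6 and 72 h. The members were chosen for low levels at 6 h in these same CHO and EtOH animals, and a choice that asks for the same course in both diets favors small gaps, so the comparisons at 6 and 72 h and that of the 6 h change are given as a description with no p. The 6 h minus 0 h change in EtOH less that in CHO was -0.01 for miR-3559-5p (95% interval -0.78 to 0.77), -0.07 for miR-374 (-0.58 to 0.43), -0.28 for miR-203 (-1.22 to 0.65) and -0.30 for miR-301a (-1.10 to 0.50). In limma, with Benjamini-Hochberg adjustment over all 143 miRNAs, 0% of all miRNAs were called for this change, 3 had an unadjusted p under 0.05 and limma with voom precision weights also called 0. With 3 animals a group, a gap between the diets as large as the CHO 6 h differences of miR-203 and miR-301a lies inside these intervals. For miR-374 a gap equal to its CHO difference of -0.53 does so as well. At 6 h itself the EtOH level less the CHO level was -0.13 for miR-3559-5p (-0.68 to 0.42), -0.28 for miR-374 (-0.64 to 0.08), 0.04 for miR-203 (-0.62 to 0.70) and -0.09 for miR-301a (-0.66 to 0.47). Again 0% of all miRNAs were called, 13 had an unadjusted p under 0.05, and voom precision weights called 1 miRNA, no member.

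At 72 h the gap between the diets was widest for miR-203. It was 10.26 ± 0.26 in EtOH and 9.58 ± 0.04 in CHO (SD, n = 3 each), 1.61-fold higher in EtOH or 0.68 on the log2 scale (95% interval 0.02 to 1.34), with no overlap between the animals. This interval is not adjusted for the 143 miRNAs, and nothing is read from it, since the members were chosen on these animals. miR-301a was at 8.79 ± 0.02 and 8.39 ± 0.06 (SD, n = 3 each), a difference of 0.40 (-0.16 to 0.97), also with no overlap. The share of all miRNAs without overlap between the diets was not counted, so nothing is read from this separation. For miR-3559-5p the difference was 0.18 (-0.37 to 0.73) and for miR-374 0.16 (-0.20 to 0.51). None of the 143 miRNAs was called at 72 h (0%), 14 had an unadjusted p under 0.05, and voom precision weights also called 0.

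The only other measured member of the listed miR-130 family, rno-miR-130a, which carries the seed marked for miR-301a, was also highest at 72 h. Its 6 h minus 0 h difference was 0.07 in CHO and -0.56 in EtOH animals (SE 0.25 for both). Here, too, the 0 h replicate 2 animals were low, by -1.10 in CHO and -0.67 in EtOH against replicates 1 and 3 on the log2 scale. For miR-130a, 6 h minus 0 h saline was -0.16 in CHO and -0.51 in EtOH. From 6 to 72 h miR-130a differed by 0.69 in CHO and by 1.27 in EtOH (SE 0.25 for both). At 72 h it stood at 10.54 ± 0.14 in CHO and 11.05 ± 0.20 in EtOH (SD, n = 3 each), the highest of its group means in each diet. It was called between the diets at 0 h, 0.38 higher in EtOH (SE 0.13; limma adjusted p = 0.036), where 14.7% of all miRNAs were called. miR-301a was not called there, but its interval of -0.20 to 0.45 holds 0.38, so no difference between them is read. Depth differed with diet at 0 h, and its part in the value of miR-130a was not tested. rno-miR-3545-3p (RefSeq rno-miR-203b-3p) was chosen here after its values were seen, because its hairpin overlaps that of miR-203 on the other strand. Its mature sequence resembles that of miR-203, and whether either probe also counts the other miRNA was not tested. At 72 h miR-3545-3p differed between the diets by 0.71 (SE 0.22, limma adjusted p = 0.251). It stood at 8.07 ± 0.16 in EtOH and 7.35 ± 0.26 in CHO (SD, n = 3 each).

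At 0 h, over 9 animals of each diet from the untreated, saline and AM21 groups, no member passed the test, where 14.7% of all 143 miRNAs did. The untreated animals among them also served to choose the members, which in part favors small gaps between the diets, at 24 h as well. Hence nothing is read from members not passing at these times. EtOH less CHO was 0.02 for miR-3559-5p (95% interval -0.29 to 0.33), -0.16 for miR-374 (-0.41 to 0.08), 0.21 for miR-203 (-0.15 to 0.57) and 0.13 for miR-301a (-0.20 to 0.45). The smallest adjusted p among them was 0.368 in limma, for miR-374. Averaged over the treatments within sets 1, 2 and 3, the difference of miR-374 was -0.17, -0.30 and -0.01. That of miR-203 was 0.12, 0.06 and 0.44, and these averages had the same direction in each set for both. Depth differed with diet at 0 h, with totals of 58168 to 171780 counts in CHO animals and 92245 to 240355 in EtOH animals. Adjusted for the log10 of the total count, the 0 h difference was -0.28 for miR-3559-5p, -0.0056 for miR-203 and -0.11 for miR-301a. That of miR-374 kept its sign. The part of depth in the diet differences was not tested. At 24 h, over 9 animals of each diet, EtOH less CHO was -0.06 for miR-3559-5p (-0.37 to 0.25), -0.13 for miR-374 (-0.37 to 0.12), 0.16 for miR-203 (-0.20 to 0.52) and 0.17 for miR-301a (-0.16 to 0.49). No member passed, and 1.4% of all miRNAs did.

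The injected animals show where the 4 miRNAs stood a day after PHx in animals other than the untreated ones. In saline animals miR-374 was higher at 24 h than at 0 h, at 8.91 against 8.57, a difference of 0.35 (95% interval 0.05 to 0.65). It was the nearest of the members to the threshold and missed it, with a limma adjusted p of 0.096. Averaged over the diets within sets 1, 2 and 3, the difference was 0.36, 0.34 and 0.34, and these averages hide the spread between the diets. They were least alike in set 2, where CHO stood at 8.74 at 0 h and 9.34 at 24 h, and EtOH at 8.77 and 8.86. By diet the difference was 0.44 in CHO, at 8.55 ± 0.19 and 8.99 ± 0.34 (SD, n = 3 each), and 0.25 in EtOH, at 8.58 ± 0.17 and 8.84 ± 0.02 (SD, n = 3 each). Without the saline animal of low miR-21 it was 0.39 (adjusted p = 0.087). In AM21 animals it was 0.18 (-0.12 to 0.48), with -0.01 in CHO and 0.38 in EtOH. Averaged over the diets within sets 1, 2 and 3 it was 0.30, 0.19 and 0.06.

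The other members differed less between 24 and 0 h. In saline animals miR-3559-5p differed by -0.03 (95% interval -0.42 to 0.35), miR-203 by -0.16 (-0.60 to 0.28) and miR-301a by -0.20 (-0.60 to 0.20). No member passed there, where 9.79% of all miRNAs did. In AM21 animals miR-3559-5p differed by 0.17 (-0.21 to 0.55), miR-203 by -0.32 (-0.76 to 0.13) and miR-301a by -0.05 (-0.45 to 0.34). None of the 4 passed, beside 14% of all miRNAs. For miR-3559-5p these intervals do not reach a difference as large as its 6 h value of -1.09.

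AM21 was not followed by a detectable change in any of the 4. Averaged over both diets and both times, AM21 less saline was -0.06 for miR-3559-5p (95% interval -0.33 to 0.21), -0.08 for miR-374 (-0.29 to 0.13), -0.06 for miR-203 (-0.37 to 0.25) and -0.16 for miR-301a (-0.44 to 0.12). No interval reached beyond -0.44 or 0.25, and the smallest adjusted p was 0.622 in limma, for miR-301a. Of all miRNAs 4.9% were called. Averaged over diets and times within sets 1, 2 and 3, the difference of miR-301a was -0.16, -0.11 and -0.22. The group means of miR-301a at 0 h were 8.06 ± 0.45 in CHO and 8.12 ± 0.20 in EtOH with AM21 (SD, n = 3 each), and at 24 h 7.90 ± 0.50 and 8.18 ± 0.06.

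**Figure D4:**
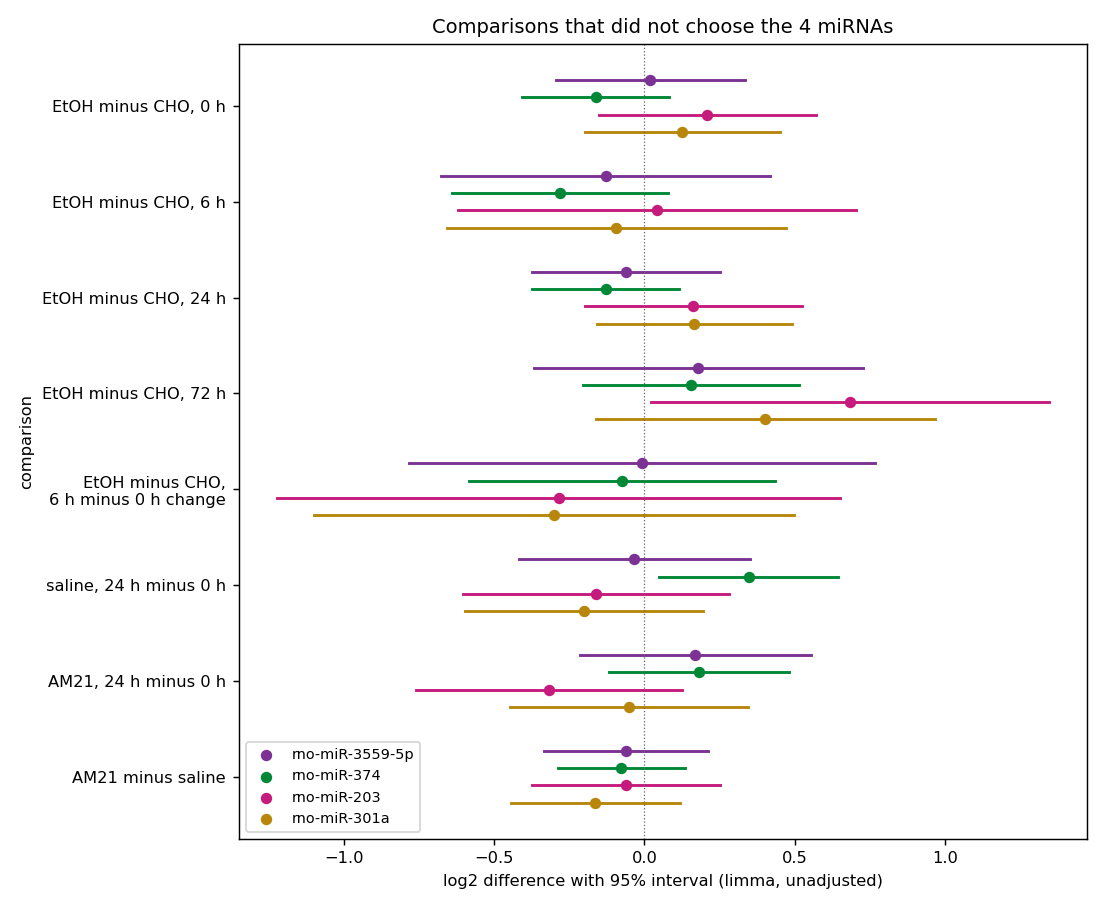
Log2 differences with unadjusted 95% intervals from limma for the 4 members (colors) in 8 comparisons. The diet comparisons at 6 h, at 72 h and of the 6 h change use animals on which the members were chosen and are a description. Those at 0 and 24 h use such animals in part. The title printed in the figure therefore holds in full only for the saline and AM21 comparisons. Only the intervals of rno-miR-203 at 72 h (0.02 to 1.34) and of rno-miR-374 in saline animals (0.05 to 0.65) exclude 0. The first is a description from which nothing is read, and the second was not called after adjustment over 143 miRNAs.

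Over all 16 groups the means of miR-3559-5p ran from 8.67 in EtOH at 6 h to 10.22 in CHO untreated at 24 h. In that order 12 of the 15 neighboring pairs of groups lay closer than the larger of their SDs, and a gap wider than that separated the lower of the AM21 groups at 0 h, CHO at 9.50 ± 0.23 (SD, n = 3), from the 6 h groups. Saline and AM21 groups at 24 h stood between 9.76 ± 0.24 and 9.87 ± 0.23 (SD, n = 3 each). The means of miR-374 ran from 8.01 to 9.29, both in EtOH, at 6 and 72 h, with 14 of 15 neighboring pairs within the larger SD. The exception was the gap between the 2 groups at 6 h, 8.29 ± 0.16 in CHO and 8.01 ± 0.07 in EtOH (SD, n = 3 each). The means of miR-203 ran from 9.09 in CHO at 6 h to 10.26 in EtOH at 72 h, and 14 of 15 pairs lay within the larger SD, the exception being the gap from the lowest group outside 6 h, CHO with AM21 at 24 h at 9.54 ± 0.20 (SD, n = 3), to the 6 h groups. For miR-301a, from 7.77 in EtOH at 6 h to 8.79 in EtOH at 72 h, all 15 neighboring pairs lay within the larger SD.

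The miRNAs whose 16 group means were most like those of the members were partly the members themselves. miR-3559-5p was most like miR-19a (Pearson r of 0.87), miR-335 (0.84) and miR-374 (0.84). For miR-374 the nearest were miR-106b (0.86), miR-19a (0.86) and miR-3559-5p (0.84). These likenesses rest in part on the 6 h and 72 h groups that served to choose the members. Over the 8 saline and AM21 groups alone, miR-374 and miR-3559-5p had an r of -0.11, while that of miR-374 and miR-19a was 0.84. For miR-203 the nearest were let-7f (0.84), the endothelial miR-126 (0.83) and the hepatocyte miR-192 (0.81), and for miR-301a they were miR-130a (0.79), miR-335 (0.74) and miR-152 (0.72). Over the 8 saline and AM21 groups, miR-3559-5p had an r of 0.13 with miR-19a and 0.20 with miR-335. That of miR-374 with miR-106b was 0.68. For miR-203 it was 0.37 with let-7f, 0.46 with miR-126 and 0.67 with miR-192. For miR-301a it was 0.16 with miR-130a, 0.32 with miR-335 and 0.46 with miR-152. Between miR-203 and miR-301a r was 0.72 over the 16 groups and 0.73 over the 8 saline and AM21 groups. Over those 8 groups the other pairs of members had an r of -0.58 (miR-203 and miR-374), -0.32 (miR-301a and miR-374), -0.03 (miR-203 and miR-3559-5p) and 0.23 (miR-301a and miR-3559-5p). Each r is a description over group means that share libraries and depth.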

How the data were processed

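Total RNA of 48 livers was assayed by the authors on the NanoString nCounter platform, which counts barcoded probes without amplification. The deposited table holds log2 CPM of 143 miRNAs, made by the authors with TMM (trimmed mean of M values) scaling and the voom transformation of limma. The filter that left these miRNAs is not given in the sources used here. Counts were recovered from the values and voom's pseudocount of 0.5, each within 0.001 of a whole number. The number of columns mapped to no sample was 0. The members and lists were chosen with earlier results of these data known.

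Differences were fitted with limma 3.58.1 (R 4.3.3) on the deposited log2 values, with 1 mean per group, over the 24 untreated animals (comparisons with 6 or 72 h) or the 36 animals at 0 and 24 h. Comparisons were adjusted by Benjamini-Hochberg over all 143 miRNAs and called below 0.05. Intervals are 95% and not adjusted. The fits were tested on simulated data. Named miRNAs are the members, their seed mates, fixed lists and, for each member, the 3 miRNAs with the most similar group means. The cell type list of 5 mesenchymal miRNAs had 4 measured, that of 5 biliary epithelial miRNAs 2, the miR-130 family 2 of 5, the epithelial list 3 of 7 and the list around miR-374 only miR-374 itself, of 3. Probe names without an arm were taken as the arm of the older name, and miR-203 as rno-miR-203a-3p. Replicates are animals of one group, and how they were spread over cages or days is not given. In all 48 pairs within groups, counts differed beyond counting error, with a chi-square per degree of freedom of at least 4.80. Counting errors given cover counting alone. Alternatives were other scalings (RLE, and the geometric mean of the 100 highest miRNAs), a filter of 50 counts in 3 animals, voom weights, a replicate block, a depth covariate, other controls, and leaving out each animal.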

Additional observations from a re-analysis of the deposited data

How the results depend on the processing

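From 0 to 24 h in saline animals and in AM21 animals, and for AM21 less saline, 0 members were called under all alternatives run. Over all miRNAs the calls in these comparisons ran from 8 to 26, from 11 to 29 and from 4 to 8. The diet comparisons also called 0 members, beside 0 to 27 of all miRNAs. They use, in full or in part, animals on which the members were chosen, so nothing is read from their count. The median 6 h minus 0 h difference of the 4 was -0.54 in CHO and -0.73 in EtOH, with ranges of -0.76 to -0.39 and -1.17 to -0.56 over all alternatives. The EtOH value moved over 1.5 times without the EtOH 0 h replicate 2 animal, to -1.17, and was the same with both 0 h replicate 2 animals left out, a setting chosen after seeing the data.

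Signs turned only for differences that had not passed. Adjusted for depth, the diet difference was -0.11 for miR-203 at 6 h, and -0.28, -0.0056 and -0.11 for miR-3559-5p, miR-203 and miR-301a at 0 h. In untreated animals alone it was -0.12 for miR-3559-5p at 0 h and -0.22 for miR-203 at 24 h. Scaled to the 100 highest miRNAs, that of miR-3559-5p at 0 h was -0.044. The diet difference in the 6 h change of miR-3559-5p was 0.11 under that scaling, 0.013 with voom weights and 0.14 with depth, and that of miR-374 0.041 under that scaling. Against saline and untreated controls, AM21 less control was 0.015 for miR-203.

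With single animals left out, signs turned within these ranges: at 6 h, miR-203 -0.053 to 0.13 and miR-301a -0.24 to 0.11. At 0 h and 24 h, miR-3559-5p ran from -0.094 to 0.13 and from -0.14 to 0.0040. For the diet difference in the 6 h change the ranges were -0.35 to 0.33 (miR-3559-5p), -0.24 to 0.13 (miR-374) and -0.77 to 0.073 (miR-203). From 0 to 24 h, miR-3559-5p ran from -0.099 to 0.035 with saline and miR-301a from -0.19 to 0.052 with AM21. AM21 less saline ran from -0.11 to 7.3e-06 for miR-3559-5p. The lowest adjusted p of any member under any alternative was 0.066, for miR-374 in saline animals. The cause of these moves was not tested.

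Counts over all miRNAs varied more. The 21 at 0 h became 13 in the compared groups alone and 3 in untreated animals alone, and the 2 at 24 h became 7 in the compared groups alone. The 14 of saline animals became 26 with depth, and 8 to 24 with single animals left out. The replicate block, tried although same-numbered animals correlated above 0.1 in only 4 of 9 pairs at 0 h, 6 of 9 at 24 h, 5 of 6 with saline, 2 of 6 with AM21 and 4 of 12 between AM21 and saline, called 0 members. Among the pairs at 0 h, the untreated ones correlated at 0.516, 0.793 and 0.654 and the others at no more than 0.194. No paired fit of the 6 h minus 0 h differences was possible because the 6 h animals share no number with those at 0 h. With the block the count was 4 at 24 h and 24 with saline, against 2 and 14.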
